A study of Homo sapiens with 6 samples.

Results

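The genes described here are 256 neighbours on the long arm of chromosome 9 (9q) whose RNA was, for most of them, higher in CAL27 cells making MB21D2 than in cells with an empty vector. They are the protein-coding genes whose GENCODE start (build GRCh38) lies on chromosome 9 between 94.7 and 138.3 Mb and whose mean FPKM (reads corrected for the length of the gene and the depth of the library) over the 6 libraries is at least 1. The interval was chosen by measured values, the log2 differences from the vector in these same libraries, so the comparisons with the vector describe that choice, and no test of them is used as support. The interval holds 379 protein-coding genes of the table. Of these, 107 lay under the FPKM minimum, 15 measured genes were left out by name, and ABCA1 was both. Whole-table counts refer to 11481 genes that passed the minimum, out of 30178, and 10277 of the 11481 are protein-coding.

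RNA sequencing covered 6 libraries of CAL27, an established oral carcinoma line that the labels call adenosquamous. All 3 groups are stable lines kept in DMEM with the selection drug G418, and the protocol names GFP-fused proteins without saying whether the vector carries GFP. The groups carry an empty vector, wild-type MB21D2, or its Q311E mutant, and each has 2 libraries, A and B. Nothing in the labels tells whether these come from separate cultures or whether a line is 1 clone. The p-values therefore reflect the spread between these samples alone, and that spread may be technical.

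MB21D2 RNA was higher in both lines labelled as carrying it than with the vector. MB21D2, on chromosome 3 and so outside the interval, was at 8.31 and 7.15 FPKM with the vector, 104 and 106 with wild type, and 32.8 and 21.2 with Q311E. These values do not separate the added gene from the cells' own. As Q311E had less of this RNA than wild type, mutation and level cannot be told apart between these lines. All 7 squamous epithelial markers were measured in each library, with summed levels of 1186 to 1206 FPKM (vector), 878 to 901 (wild type) and 1077 to 1148 (Q311E). Single markers differed more than the sum, as with KRT6A at 109 and 104 FPKM with the vector, 7.90 and 9.49 with wild type, and 16.7 and 14.97 with Q311E. TP63 was lower in wild type than with the vector (14.8 and 14.5 against 30.2 and 29.8 FPKM) and DSP higher (43.5 and 49.2 against 24.32 and 21.99 FPKM), and the part of such marker differences in the members' values was not tested. The 5 fibroblast markers summed to at most 2.67 FPKM. Among the 4 endothelial markers CDH5 was at 15.4 to 35.2 FPKM, while KDR, VWF and PECAM1 were near 0. Of 5 leukocyte markers 3 were found. PTPRC was at or near 0, and CD14 ran from 1.78 to 18.8 FPKM, highest in Q311E B. Libraries held 20645410 to 24147306 reads. The Q311E pair was the least alike, with an SD of 0.44 for the log2 difference between A and B over tested genes, against 0.19 for the vector pair and 0.15 for the wild-type pair.

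Genes that lie side by side need have no function in common, and 9q holds nuclear pore, glycosylation, signalling and metabolic genes among others. As background, the RNA of most genes on a chromosome segment is known to follow the number of copies of that segment, while single genes under their own control can depart from it. DNA was not analysed here, and its part in these values was not tested.

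Promoters of 4 members are shown first, because these genes mark the places the results turn on: ZNF510 and ZNF782 stand on either side of the start of the shift, and ST6GALNAC4 and DPM2 are near neighbours of which the former lay below the vector and the latter above it. The sequences are from RefSeq on GRCh38.p14, run 5′ to 3′ on the gene's strand (minus for all 4), and span 300 bases, most of them before the gene's RefSeq start and the last 50 from it on. Capitals mark the GC box, searched as GGGCGG or, for the other strand, CCGCCC. Positions are chr9:96778038-96778337 for ZNF510, chr9:96854465-96854764 for ZNF782, chr9:127916992-127917291 for ST6GALNAC4 and chr9:127937805-127938104 for DPM2.
ZNF510: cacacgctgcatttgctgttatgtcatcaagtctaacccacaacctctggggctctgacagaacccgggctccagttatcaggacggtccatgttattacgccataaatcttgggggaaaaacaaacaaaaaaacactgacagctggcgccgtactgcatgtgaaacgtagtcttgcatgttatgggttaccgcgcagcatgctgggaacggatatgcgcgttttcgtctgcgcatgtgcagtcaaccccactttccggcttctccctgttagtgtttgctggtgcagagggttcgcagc
ZNF782: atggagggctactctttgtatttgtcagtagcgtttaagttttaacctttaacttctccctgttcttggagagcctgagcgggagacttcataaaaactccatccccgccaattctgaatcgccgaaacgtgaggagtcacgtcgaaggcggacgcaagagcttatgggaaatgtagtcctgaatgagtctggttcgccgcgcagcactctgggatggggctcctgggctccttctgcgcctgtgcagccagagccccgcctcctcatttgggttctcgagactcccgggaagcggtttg
ST6GALNAC4: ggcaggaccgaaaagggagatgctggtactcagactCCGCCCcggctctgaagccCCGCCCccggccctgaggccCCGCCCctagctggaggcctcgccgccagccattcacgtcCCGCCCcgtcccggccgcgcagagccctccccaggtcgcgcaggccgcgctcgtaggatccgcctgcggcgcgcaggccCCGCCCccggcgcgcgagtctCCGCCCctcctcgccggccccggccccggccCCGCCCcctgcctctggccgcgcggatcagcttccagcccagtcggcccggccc
DPM2: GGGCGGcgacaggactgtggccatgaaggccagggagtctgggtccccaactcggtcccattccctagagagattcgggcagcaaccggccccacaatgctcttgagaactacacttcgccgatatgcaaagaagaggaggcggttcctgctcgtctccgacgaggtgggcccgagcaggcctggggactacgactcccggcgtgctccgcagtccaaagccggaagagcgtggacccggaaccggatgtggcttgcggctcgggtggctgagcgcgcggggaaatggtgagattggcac

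ZNF510 and ZNF782 hold 0 GC boxes in this window, ST6GALNAC4 holds 7 and DPM2 holds 1. Promoters of 226 of the 256 members were found, and 77.0% of them hold a GC box, against 72.6% of 8213 promoters of the other tested protein-coding genes and 44.6% of all 27305 promoters of this length. Among members clear of the vector in both lines the share was 79.4% of 165, and among the other members it was 70.5% of 61. The median number of CpG pairs was 31 in the former set and 28 in the latter. A TATA box, searched as TATAAA on both strands, was in 3.98% of member promoters and 5.20% of the other tested ones. These matches describe the letters in the window and nothing about a factor.

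The members' median log2 difference was 0.49 between wild type and vector and 0.48 between Q311E and vector, on the log2(FPKM + 1) scale used throughout. Both comparisons share the vector libraries, so they are given side by side and not set against each other. Taking single libraries against the vector mean, the median was 0.48 in each wild-type library, 0.50 in Q311E A and 0.46 in Q311E B. Over the other tested protein-coding genes the medians were -0.05 and -0.02. Without the pseudocount, the median ratio to the vector mean was 1.46 in wild type (quartiles 1.22 and 1.70) and 1.47 in Q311E (quartiles 1.2488 and 1.7985).

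**Figure D1:**
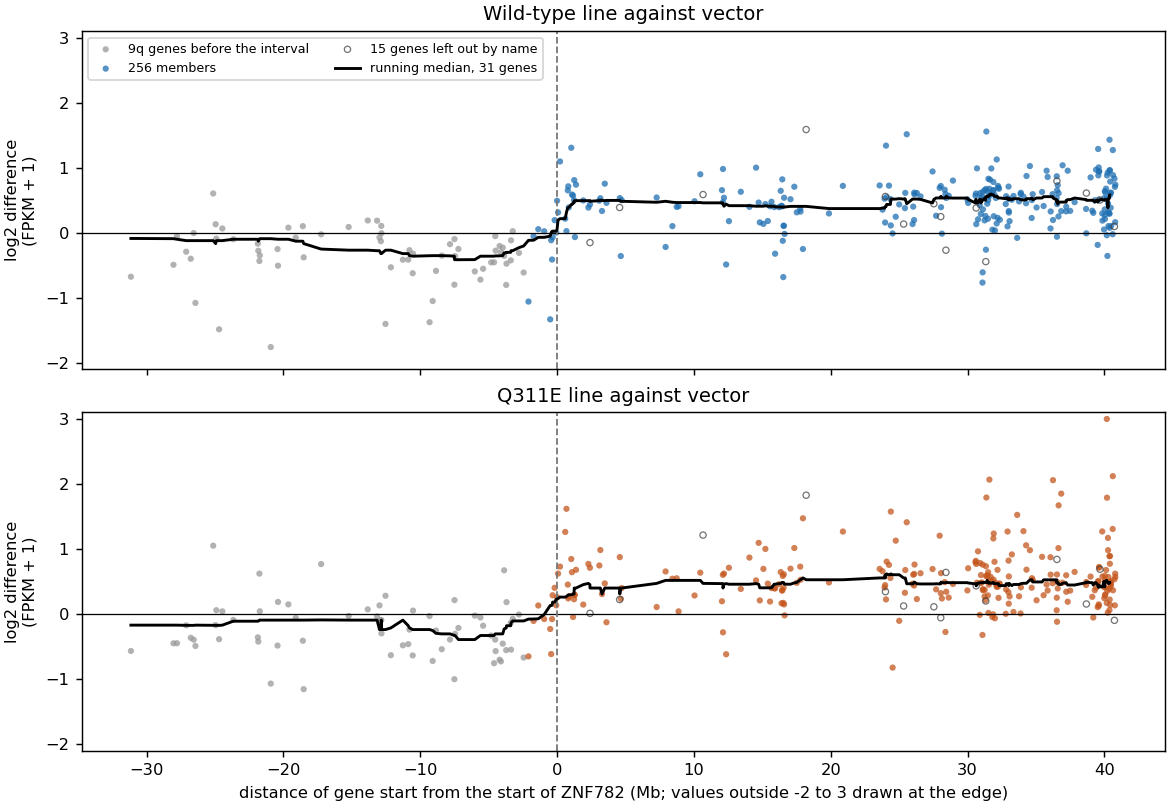
Log2 difference in FPKM + 1 against the vector for tested protein-coding genes of 9q, by distance of the gene start from the start of ZNF782, for wild type (upper) and Q311E (lower). Filled coloured points are the 256 members, grey points the 9q genes before the interval, open points the 15 genes left out by name, and the line a running median of 31 genes, which lies below 0 on the left and near 0.5 from shortly after ZNF782 on.

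Most members stood above the vector. In wild type 229 of 256 did, in Q311E 235, and in both lines 217, or 84.8%. In bulk libraries, more cells with an RNA and more of that RNA per cell cannot be told apart. In 191 members all 4 libraries of the MB21D2 lines lay above both vector libraries, a pattern met by 11.9% of all tested genes, and in 5 members all 4 lay below, a pattern met by 17.5%. Taken singly, the wild-type pair was clear above the vector pair in 218 members (32.1% of all tested genes) and the Q311E pair in 214 (30.1%). The limma fit over all 11481 genes, called at an adjusted p under 0.05, called 124 members higher and 4 lower in wild type, against 3.54% and 8.76% of all tested genes (12.3% in all). In Q311E it called 138 higher and 2 lower, against 8.67% and 9.28% (18% in all). The rule chose these genes on the same contrasts, so nothing is read from the counts. They fell to 0 in both comparisons when either vector library was left out. With either wild-type library left out they fell to 0 in wild type and 21 in Q311E. They rose to 206 in wild type without Q311E A or without Q311E B. In limma 142 to 156 members in wild type, and 148 and 152 in Q311E, had an unadjusted p under 0.05 where the count was 0.

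The step on chromosome 9 fell near 96.8 Mb. The 440 tested protein-coding genes of the chromosome were split in 2 at the place that left the smallest absolute deviations from each side's median. The first gene after the split was ZNF782, with a GENCODE start of 96816472, and the last before it ZNF510, at 96755865. A GENCODE start is the lower coordinate, which in these minus-strand genes is the end away from the promoter. The median of both comparisons was -0.09 over the 179 genes before and 0.48 over the 261 after. The 179 pool 9p with 9q genes that lay lower, as given below. ZNF510 and ZNF782 are both KRAB-type zinc finger genes. ZNF510 was at 2.29 and 2.10 FPKM with the vector, 2.15 and 2.27 with wild type, and 2.49 and 2.52 with Q311E. ZNF782 was at 0.815 and 0.796, then 1.36 and 1.75, then 1.18 and 1.15. The vector and wild-type ranges of ZNF510 overlap, whereas every MB21D2 library of ZNF782 is above both vector libraries.

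The place moved by a few genes with the comparison used. Wild type alone and the B libraries gave ZNF782, the A libraries gave PRXL2C at 96639577, and Q311E alone gave CDC14B at 96490241. CDC14B, a phosphatase of cell-cycle proteins, was at 2.77 and 2.85 FPKM with the vector, 2.59 and 2.68 with wild type, and 3.43 and 3.90 with Q311E. It was thus below the vector in both wild-type libraries and above it in both Q311E libraries. PRXL2C, a peroxiredoxin-like gene, was at 2.27 and 2.06 FPKM, then 2.99 and 2.30, then 3.58 and 2.84, with each MB21D2 library above both vector libraries. A running median of 31 genes over both comparisons was last at or below 0 at SLC35D2 (96.31 Mb). It then stayed between 0.07 and 0.58 up to the last full window, whose centre lies short of the last genes.

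Of the 12 members before 97 Mb, 10 lie before the split, and ZNF782 and MFSD14CP after it. The medians of the 12 were -0.02 in wild type and 0.03 in Q311E, and 5 of them were below the vector in both lines. The 18 members from 97 to 100 Mb already had medians of 0.52 and 0.66. The first member, AOPEP, an aminopeptidase gene at chr9:94726701-95087218, was at 4.36 and 4.28 FPKM with the vector, 1.57 and 1.55 with wild type, and 2.38 and 2.40 with Q311E. FANCC, a core subunit of the Fanconi anaemia DNA repair complex, was at 3.95 and 3.74, then 3.84 and 3.52, then 3.67 and 3.34. PTCH1, the Hedgehog receptor, was at 1.13 and 1.13, then 1.21 and 1.21, then 1.23 and 1.44. AOPEP was clear below the vector in all 4 libraries, FANCC overlapped it in wild type, and PTCH1 was slightly above it. Next come ERCC6L2, linked to DNA repair, with log2 differences of 0.02 and -0.08, and SLC35D2, a nucleotide sugar carrier described below.

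Just outside the lower position bound, the 5 nearest tested genes were at or below the vector in most values. MFSD14B, a transporter-family gene, had log2 differences of -0.61 in wild type and -0.67 in Q311E. PTPDC1, a phosphatase gene, had -0.31 and -0.01, and PHF2, a histone demethylase gene, 0.03 and -0.07. FAM120A, an RNA-binding scaffold gene, had -0.11 and -0.55, and its antisense neighbour FAM120AOS had -0.42 and -0.13. Over the 66 tested 9q genes before the interval the medians were -0.30 and -0.27. Of these genes 33 were clear below the vector in both lines and 1 clear above, where 17.5% and 11.9% of all tested genes were. The 32 of the 66 from 85 Mb on had medians of -0.38 and -0.36, with 20 clear below in both lines and 0 clear above. On 9p, the short arm, the medians of 103 genes were -0.07 and -0.01. Median differences on the other 22 chromosomes ran from -0.13 to -0.00 in wild type and from -0.13 to 0.03 in Q311E.

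At the far end the difference went on to the last gene. ZMYND19, a zinc finger MYND gene, was at 26.0 and 28.0 FPKM with the vector, 46.3 and 43.1 with wild type, and 33.8 and 26.1 with Q311E. ARRDC1, an arrestin-domain gene, was at 20.8 and 23.6, then 24.93 and 24.98, then 31.3 and 38.4. EHMT1, a histone H3 lysine methyltransferase, was at 3.23 and 3.31, then 6.269 and 6.002, then 6.10 and 4.67. ARRDC1 and EHMT1 were clear above the vector in all 4 libraries, while ZMYND19 in Q311E B lay within the vector range.

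From 97 Mb on the median of every block was above 0, and it varied more in Q311E than in wild type. In Q311E it went from 0.66 at 97 to 100 Mb to 0.35 in the next block and 0.54 at 105 to 110 Mb. In blocks of 5 Mb from 100 Mb to 135 Mb the medians ran from 0.40 (29 members, 110 to 115 Mb) to 0.55 (60 members, 125 to 130 Mb) in wild type. In Q311E they ran from 0.35 (8 members, 100 to 105 Mb) to 0.88, the latter over only 2 members at 115 to 120 Mb, and to 0.61 (28 members, 120 to 125 Mb) without that block. The 51 members after 135 Mb had 0.53 and 0.49. The longest unbroken run of members above the vector in both lines held 21 genes, from FUBP3 (130.58 Mb) to MED22 (133.34 Mb).

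**Figure D2:**
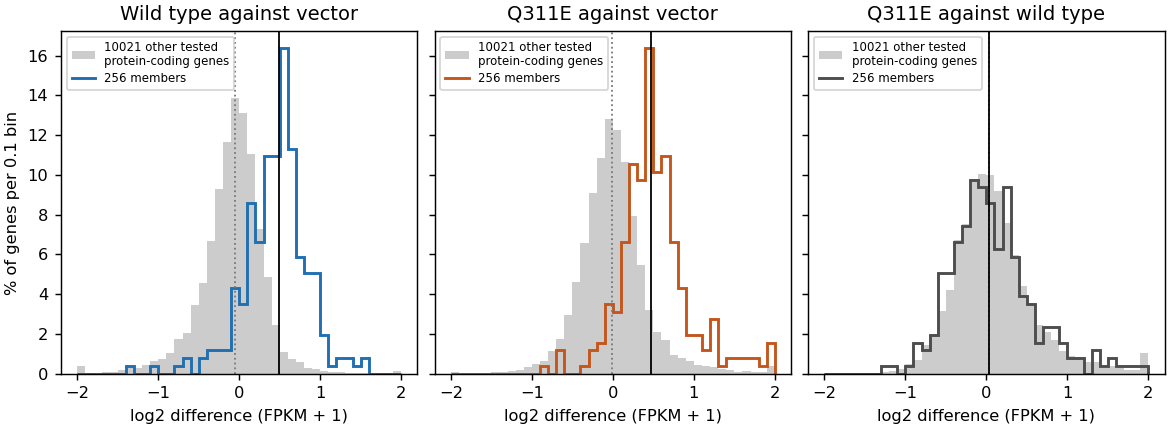
Distribution of log2 differences (FPKM + 1, bins of 0.1, values beyond 2 drawn in the last bin) for the 256 members (outline) and the 10021 other tested protein-coding genes (grey), as a percentage of each set; vertical lines are medians. The members' outlines in both comparisons with the vector sit to the right of the grey ones with medians of 0.49 and 0.48, and in Q311E against wild type the 2 distributions lie over each other.

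The members scattered around their own median about as widely as all tested genes did around theirs. Within 0.25 of the members' own median lay 57.4% of members in wild type and 57.8% in Q311E, against 56.7% and 53.3% of all tested genes around theirs. Within 0.5 lay 84.4% and 80.5%, against 83.5% and 81.3%. A ratio to the vector of 1.2 to 1.8 was seen in 144 members (56.2%) in wild type and 138 (53.9%) in Q311E, against 14.3% and 18.8% of the other tested protein-coding genes. The ratio was over 2 in 26 and 45 members, and under 1 in 27 and 20.

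The size of the difference was also taken by the level of the gene. Over the 85 members of lowest mean FPKM the wild-type median was 0.33, over the middle 85 it was 0.50 and over the 86 highest 0.54. Less the median of other genes in the same FPKM range, these became 0.41, 0.54 and 0.58. With a pseudocount of 0.1 they were 0.55, 0.62 and 0.61, so part of that order depends on the pseudocount. In Q311E the members' medians ran the other way, 0.60, 0.49 and 0.39, less the other genes 0.54, 0.51 and 0.53, and with a pseudocount of 0.1 and less the other genes 0.69, 0.56 and 0.55. No single order with level therefore held in both lines.

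The next genes are among the members nearest the members' median in the mean of both comparisons. ASB6, a SOCS-box protein gene, was at 9.16 and 8.61 FPKM with the vector, 13.3 and 13.9 with wild type, and 12.1 and 11.6 with Q311E. NCBP1, the large subunit of the nuclear cap-binding complex, was at 15.9 and 13.7, then 25.3 and 24.6, then 19.3 and 16.1. In both genes every MB21D2 library lay above both vector libraries, and wild type lay above Q311E. DOLPP1, a dolichol diphosphatase gene, showed the same order, at 26.87 and 24.98, then 41.3 and 43.9, then 30.97 and 31.02. NCBP1, SAPCD2 and SPACA9 are near the median because their 2 differences average out. With wild type first, these were 0.72 and 0.24 for NCBP1, 0.93 and 0.02 for SAPCD2 and 0.07 and 0.87 for SPACA9. Wild type above Q311E was no general order, as 130 of the 256 members were higher in Q311E than in wild type.

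Of the 6 most abundant members, TXN, NIBAN2 and EDF1 were clear above the vector in both lines. TUBB4B, a beta-tubulin, was at 467 and 438 FPKM with the vector, 774 and 791 with wild type, and 608 and 409 with Q311E. TXN, thioredoxin, was at 403 and 445, then 633 and 683, then 562 and 547. TXN was above the vector in all 4 libraries, but Q311E B of TUBB4B was below it. SET, a histone chaperone and phosphatase inhibitor, was at 198 and 184, then 308 and 295, then 217 and 167. ANP32B, a related nuclear chaperone, was at 163 and 166, then 247 and 243, then 172 and 148. In SET and ANP32B the wild-type pair was clear above the vector and the Q311E values lay on both sides of it. NIBAN2 had log2 differences of 0.99 and 0.48, and EDF1, a transcriptional coactivator, 0.22 and 0.29.

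Few members lay below the vector in both lines, and part of these start before the shift does. In the group means of both lines 9 of the 256 were below the vector: AOPEP, FANCC, SLC35D2, ZNF367, HABP4, EPB41L4B, RGS3, STOM and ST6GALNAC4. Of these, AOPEP, FANCC, SLC35D2, ZNF367 and HABP4 start before the split at ZNF782. From 97 Mb on there were 4 of 244, namely EPB41L4B, RGS3, STOM and ST6GALNAC4. Of the 244, 212 were above the vector in both lines, 11 in wild type only and 17 in Q311E only. Of the 9, all 4 MB21D2 libraries lay below both vector libraries in AOPEP, SLC35D2, ZNF367, EPB41L4B and ST6GALNAC4.

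SLC35D2 was farthest below in wild type. It was at 2.94 and 3.14 FPKM with the vector, 0.653 and 0.564 with wild type, and 2.47 and 2.43 with Q311E, log2 differences of -1.33 and -0.23. ZNF367, a zinc finger transcription factor gene beside it, was at 12.8 and 12.1, then 11.5 and 11.3, then 9.92 and 6.05. In SLC35D2 the wild-type pair is low and Q311E only a little under the vector, and in ZNF367 the order is the other way round. HABP4, which binds hyaluronan and RNA, had -0.41 and -0.08, with Q311E values on both sides of the vector.

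Of the 244 members from 97 Mb on, 2 were clear below the vector in all 4 libraries, ST6GALNAC4 and EPB41L4B, where 17.5% of all tested genes were. ST6GALNAC4, a sialyltransferase gene at chr9:127907886-127917038, was at 21.3 and 21.0 FPKM with the vector, 12.09 and 12 with wild type, and 15.7 and 17.8 with Q311E. DPM2, a subunit of dolichol-phosphate mannose synthase whose promoter is printed above, was at 13.5 and 14.1, then 21.0 and 22.8, then 16.6 and 19.6. The 2 genes thus lay on opposite sides of the vector in all 4 libraries. Between them PIP5KL1, a phosphoinositide kinase-like gene, was at 1.13 and 1.66, then 0.593 and 0.536, then 2.18 and 4.13, below the vector with wild type and above it with Q311E.

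EPB41L4B, a FERM-domain gene of the cell cortex, was at 1.48 and 1.62 FPKM with the vector, 0.874 and 0.768 with wild type, and 0.507 and 0.834 with Q311E, and all 4 values were below the vector. STOM, the membrane protein stomatin, was at 21.8 and 20.8, then 21.7 and 20.6, then 9.01 and 14.9, low only in Q311E. RGS3, a regulator of G-protein signalling, was level in all groups, at 1.31 and 1.47, then 1.28 and 1.46, then 1.51 and 1.21. BSPRY, a B-box and SPRY-domain gene, was low in wild type alone, at 9.88 and 10.3, then 6.17 and 5.69, then 13.0 and 10.2.

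**Figure D3:**
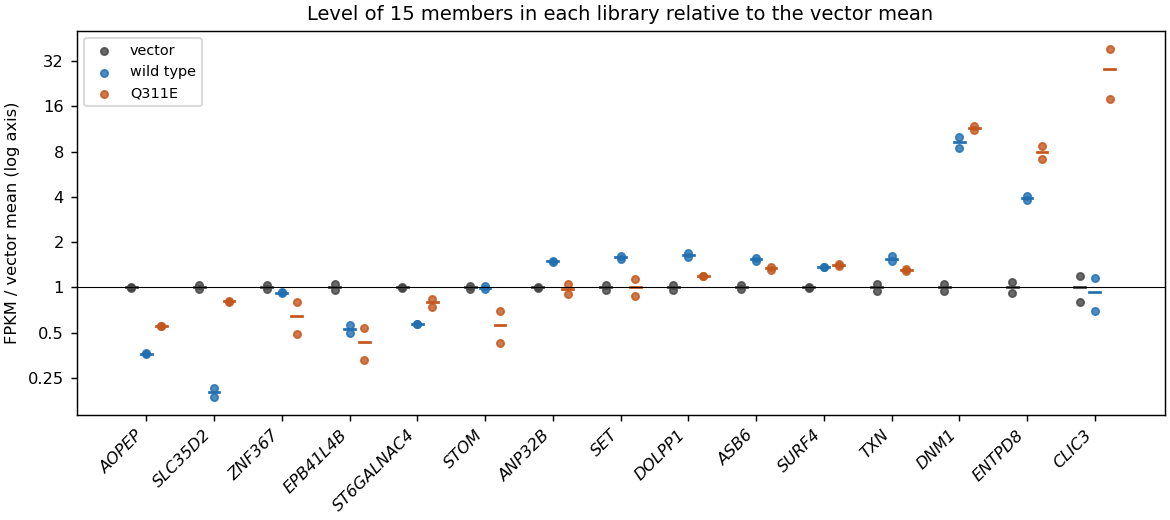
FPKM of 15 members in each library divided by the vector mean, on a log axis, with dots for libraries and bars for group means. From left to right stand 6 members below the vector in both lines, 2 abundant chaperone genes, 4 members with typical differences and 3 far above the vector, of which CLIC3 is high only in Q311E.

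At the other end, DNM1, the dynamin gene of endocytosis, was at 0.292 and 0.328 FPKM with the vector, 3.12 and 2.62 with wild type, and 3.64 and 3.44 with Q311E. PTGS1, cyclooxygenase 1, was at 3.72 and 3.33, then 12.03 and 11.85, then 8.47 and 14.3. ENTPD8, an ectonucleotidase gene, was at 0.862 and 1.02, then 3.57 and 3.82, then 8.22 and 6.74. All 3 were clear above the vector in both lines. Exons of DNM1 overlap those of CIZ1 on the other strand, and the use of strand in counting is not given in the sources used here, so their reads may not be told apart. The same limit holds for CDC14B with HABP4, ENTPD8 with NOXA1 and TMOD1 with TSTD2, and CARD9 overlaps DNLZ on its own strand. CIZ1, a replication factor gene, had log2 differences of 0.68 and 0.59, against 1.56 and 1.79 for DNM1.

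Other members were far above the vector in wild type. FOXE1, a forkhead transcription factor gene, was at 1.32 and 1.16 FPKM, then 4.67 and 4.42, then 2.74 and 3.33. PHF19, a Polycomb-like subunit, was at 7.86 and 7.47, then 20.6 and 21.3, then 11.0 and 7.55. CARD9, an adaptor of innate immune signalling, was at 3.02 and 2.90, then 8.863 and 8.498, then 5.78 and 3.67. In these 3 genes the wild-type pair was above the Q311E pair, and Q311E B of PHF19 fell within the vector range. TPRN, the taperin gene, whose exons overlap TMEM203, had 1.43 and 0.89. In Q311E CEL, a lipase gene, had a log2 difference of 2.06 that rests on 1 library, at 1.42 FPKM in Q311E A and 19.9 in Q311E B.

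Q311E against wild type is the comparison that the rule did not use, so its tests are the ones reported for single members. The members' median difference was 0.03 (quartiles -0.26 and 0.31), against 0.05 over all tested genes. By limma, with p adjusted over all 11481 genes, 84 of 256 members passed, 47 higher in Q311E and 37 lower, where 27.5% of all tested genes passed, 17.5% higher and 10.1% lower. At an unadjusted p under 0.05 there were 122. The split depends on scaling: it was 38 higher and 68 lower after median scaling, 39 and 21 on the TPM scale, 36 and 42 after quantile normalization, 47 and 50 with the length trend removed and 48 and 49 with limma-voom on recovered reads. No called member changed sign under these. Without wild-type A or without wild-type B limma called 0, with 74 and 76 members at an unadjusted p under 0.05. It called 23 without vector A or without vector B, and 159 without Q311E A.

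CLIC3, a chloride channel-like protein gene, rose most, from 0.335 and 0.558 FPKM in wild type to 8.62 and 18.6 in Q311E, with the vector at 0.387 and 0.576. Its log2 difference was 3.25 ± 0.33 (SE, limma). TNFSF15, a cytokine of the TNF family, rose from 1.38 and 1.14 to 4.59 and 8.93 (1.72 ± 0.27, limma, adjusted p = 0.0136). TMOD1, which caps actin filaments, rose from 0.775 and 0.906 to 3.87 and 5.31 (1.59 ± 0.15, limma), with the vector at 0.744 and 0.870. In each of these genes wild type lay below or close to the vector and both Q311E libraries stood high. CLIC3 and TMOD1 reached the mean FPKM of 1 only through the Q311E libraries. For them the minimum itself favours a rise in Q311E, so no p-value is given, though the counts of called members include them.

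GSN, the actin-severing protein gelsolin, rose from 2.436 and 1.996 FPKM in wild type to 6.40 and 9.55 in Q311E, with the vector at 1.91 and 2.02. ASS1, the argininosuccinate synthase of arginine synthesis, rose from 64.0 and 65.2 to 132 and 297, with the vector at 64.3 and 72.2. CERCAM, a cell adhesion gene, rose from 2.16 and 2.08 to 6.58 and 7.82, with the vector at 0.779 and 1.14. GSN and ASS1 had wild-type values close to the vector, whereas CERCAM was above it in both lines. SARDH, a mitochondrial sarcosine dehydrogenase, rose by 1.52 on the log2 scale, and SLC35D2, the lowest member in wild type, by 1.10 ± 0.10 (limma, adjusted p = 0.00427).

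CTNNAL1, alpha-catulin, fell most, from 126 and 124 FPKM in wild type to 67.8 and 39.1 in Q311E, with the vector at 65.6 and 60.1. Its log2 difference was -1.26 ± 0.25 (SE, limma, adjusted p = 0.0222). PHF19, given above, fell by 1.12 (limma, adjusted p = 0.0118). RABEPK, which acts in Rab9 transport, fell from 17.4 and 16.2 to 9.64 and 7.85, with the vector at 11.5 and 10.0 (-0.87 ± 0.12, limma, adjusted p = 0.0107). Wild type thus stood above both other groups in these 3 genes.

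ENTR1, an endosome transport gene, fell from 60.4 and 59.8 FPKM in wild type to 36.3 and 29.5 in Q311E, with the vector at 30.2 and 28.7. SLC27A4, a fatty acid transport protein, fell from 21.2 and 19.9 to 12.5 and 10.1, with the vector at 11.0 and 11.2. SURF2, of the surfeit cluster, fell from 71.2 and 74.3 to 45.3 and 39.3, with the vector at 47.8 and 44.0. In these genes the Q311E pair reached back to or near the vector level. SURF2 overlaps SURF1, an assembly factor of cytochrome oxidase, and ENTR1 overlaps PMPCA, a mitochondrial processing peptidase. STOM fell by 0.81 with Q311E values under the vector.

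By role, 135 of the 256 members fall in 7 lists, and 121 in none. The lists were drawn up with earlier results of these data known, so their counts are descriptions. In Q311E against wild type each count is to be read beside the 27.5% of all tested genes that passed, 17.5% higher and 10.1% lower, and nothing is called particular to a list. In every list the median against the vector was above 0 in both lines.

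The list of the nuclear pore, transcription elongation and RNA processing was lower in Q311E than in wild type in its median. Of its 25 members 8 passed, all of them lower, where 10.1% of all tested genes passed lower, and 14 had an unadjusted p under 0.05. That share is higher among abundant genes, and the median member of this list averaged 19.2 FPKM. Of 2762 protein-coding genes outside the members at a mean of 16.7 to 581 FPKM, 573 passed lower, with a median of -0.09. The number of list members that passed depends on scaling. It was 2 on the TPM scale, 10 after quantile normalization, 11 with limma-voom, 14 with the length trend removed and 16 after median scaling. The median of -0.21 lay between -0.33 and -0.21 under each of these. Against the vector its medians were 0.60 (wild type) and 0.37 (Q311E). Clear above the vector in all 4 libraries were 22 of the 25, 74.6% of all members and 11.9% of all tested genes. Those that fell included NUP188, NCBP1, EXOSC2, SURF6, ANP32B, REXO4 and MED22. NUP188, a nuclear pore scaffold gene, fell by 0.69 (limma, adjusted p = 0.0341) and shares exon sequence with SH3GLB2. NELFB, a subunit of the elongation pausing factor NELF, did not pass, at 49.5 and 49.2 FPKM with the vector, 75.9 and 76.5 with wild type, and 67.6 and 70.0 with Q311E.

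Chromatin, replication and repair genes numbered 19. Of these 1 passed higher (CDC14B) and 5 lower (PHF19, WDR5, SET, POLE3 and NACC2) in Q311E, where 17.5% and 10.1% of all tested genes did. On the TPM scale 3 of the 19 passed. The list's medians against the vector were 0.50 and 0.29. POLE3, a histone-fold subunit of DNA polymerase epsilon, was at 48.9 and 47.1 FPKM with the vector, 70.1 and 70.4 with wild type, and 57.3 and 49.7 with Q311E. RAD23B, a partner of the damage sensor XPC, was at 83.6 and 76.7, then 148 and 153, then 135 and 116. Both were clear above the vector in all 4 libraries, and POLE3 passed as lower in Q311E (-0.39, limma, adjusted p = 0.0334). XPA, another nucleotide excision repair gene, had log2 differences of 0.39 and 0.27 against the vector.

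Among 16 members of the centrosome, cilium and cytoskeleton list, 1 passed higher (GSN) and 4 lower (CTNNAL1, STOM, ARPC5L and ODF2), where 17.5% and 10.1% of all tested genes did. The number that passed ran from 3 on the TPM scale to 7 after median scaling. DYNC2I2, an intermediate chain of the ciliary motor dynein-2, stayed level, at 67.9 and 71.7 FPKM with the vector, 73.1 and 71.3 with wild type, and 69.1 and 66.0 with Q311E. Of the 16, 9 were clear above the vector in all 4 libraries, against 74.6% of all members and 11.9% of all tested genes. EPB41L4B was clear below, as were 17.5% of all tested genes.

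All 21 members of the signalling list were clear above the vector in all 4 libraries, with medians of 0.57 and 0.61. That pattern was met by 191 of all 256 members (74.6%) and 11.9% of all tested genes. PTPA, an activator of the phosphatase PP2A, was at 36.5 and 35.9 FPKM with the vector, 58.3 and 58.9 with wild type, and 48.6 and 52.4 with Q311E. PPP6C, a catalytic phosphatase subunit, was at 20.02 and 18.73, then 31.8 and 30.7, then 27.4 and 27.9. RAPGEF1, an exchange factor for Rap1, was at 18.5 and 15.8, then 26.8 and 25.9, then 29.2 and 21.6. In Q311E against wild type 2 members passed higher (DAB2IP and PTPN3) and 2 lower (VAV2 and MAPKAP1), where 17.5% and 10.1% of all tested genes did. After median scaling 9 members passed.

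In the secretory and glycosylation list 20 of 22 members were clear above the vector in all 4 libraries, with medians of 0.47 and 0.55. Of all members 74.6% were, and of all tested genes 11.9%. SURF4, a cargo receptor of the endoplasmic reticulum, was at 87.9 and 89.0 FPKM with the vector, 121 and 120 with wild type, and 127 and 123 with Q311E. RAB14, a GTPase of endosome traffic, was at 30.0 and 29.8, then 43.7 and 42.9, then 45.9 and 43.0. UGCG, glucosylceramide synthase, was at 57.1 and 55.8, then 65.3 and 59.3, then 107 and 78.8, and in Q311E against wild type narrowly missed the threshold (0.56, limma, adjusted p = 0.0501). In all 5 of the 22 passed, under the 27.5% of all tested genes: ERP44, MAN1B1 and ST6GALNAC4 as higher in Q311E, and RABEPK and DOLPP1 as lower.

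Metabolism and transport held 24 members with medians of 0.48 and 0.56, of which 6 passed higher in Q311E (ASS1, ALAD, SLC2A6, SLC44A1, SURF1 and PTGR1) and 2 lower (SLC27A4 and PMPCA), where 17.5% and 10.1% of all tested genes did. PTGES2, a prostaglandin E synthase, was at 50.3 and 53.9 FPKM with the vector, 63.8 and 61.3 with wild type, and 54.9 and 66.7 with Q311E, a small difference that was clear of the vector in each library.

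The extracellular matrix, cell surface and secreted list had 8 members, with medians of 0.58 and 0.87 against the vector. In Q311E against wild type 4 passed higher (CLIC3, TNFSF15, CERCAM and NPDC1) and 1 lower (QSOX2), where 17.5% and 10.1% of all tested genes did. CLIC3 reached the FPKM minimum only through Q311E. COL5A1, a fibrillar collagen chain, was at 8.08 and 8.37 FPKM with the vector, 11.7 and 11.9 with wild type, and 17.1 and 10.6 with Q311E. QSOX2, a sulfhydryl oxidase, was at 29.4 and 26.9, then 56.6 and 55.6, then 41.8 and 33.9. Both were above the vector in all 4 libraries.

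**Figure D4:**
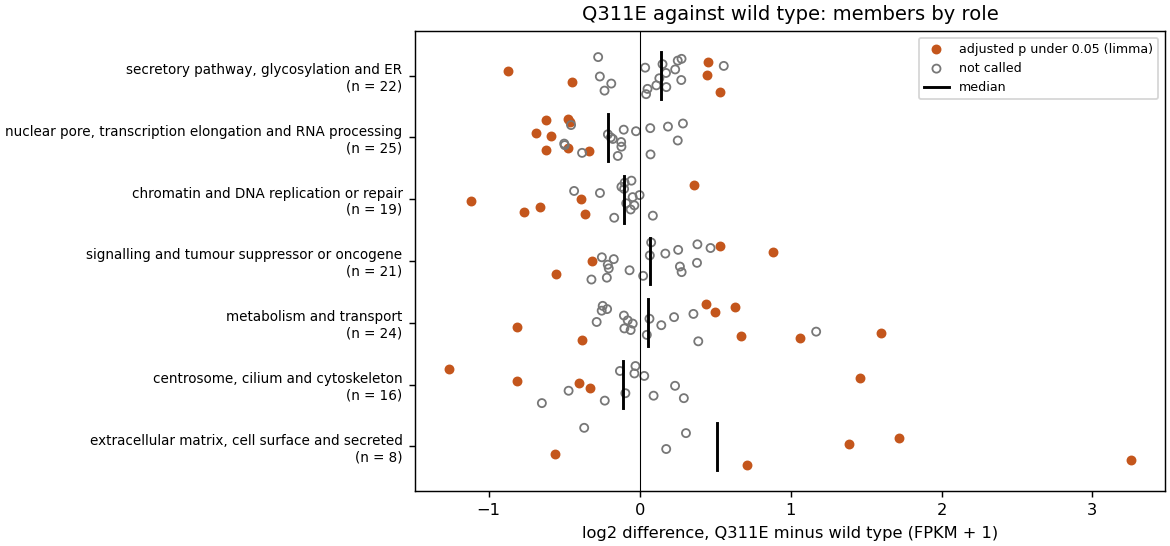
Log2 difference in FPKM + 1 between Q311E and wild type for the members of each role list, with filled points for members called by limma (adjusted p under 0.05 over all tested genes), open points for the others and bars for list medians. The nuclear pore and RNA processing members that were called all lie left of 0, and 4 of the 5 called members of the matrix, surface and secreted list lie to the right.

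Genes near the FPKM minimum varied on both sides of it. Just over it lay EPB41L4B, which was below the vector, ZFP37, a zinc finger gene, with log2 differences of 0.40 and 0.46, and FIBCD1, a chitin-binding receptor, with 0.56 and 1.28. Just under it, RNF208 had group means of 0.346 FPKM (vector), 1.07 (wild type) and 1.33 (Q311E). ENTPD2 had 0.472, 1.01 and 1.43, and SLC31A2, a copper transporter family gene, 0.808, 0.784 and 1.41. The lowest read count behind any member in a library was 9, and the median over members of each one's lowest library was 733 reads. These recovered counts rest on a fitted gene length in 137 members.

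Genes of the interval outside the rule gave smaller medians than the members in wild type. The 15 measured genes left out by name had 0.39 in wild type and 0.22 in Q311E. TNC, tenascin C, was the highest of them in both, at 1.59 and 1.83. The lowest were LCN2, lipocalin 2, in wild type (-0.44, with 0.20 in Q311E) and MRPL41 in Q311E (-0.10). The 25 tested non-coding genes had 0.28 and 0.47, the latter close to the members' 0.48. Overlapping exons touched 89 members, with medians of 0.50 and 0.41, while the 167 with no such overlap had 0.48 and 0.49. Clear above the vector in all 4 libraries were 59 of the 89 (66.3%) and 132 of the 167 (79.0%), against 11.9% of all tested genes.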

How the data were processed

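The authors deposited 1 table of FPKM values for 30178 human Ensembl gene IDs in 6 libraries. Per the submitters' processing notes, the tool was CASAVA and the builds mm8 and mm9, both of mouse and with no role given, although the IDs are human. Per the labels' protocols, libraries followed standard Illumina steps. The read mapper, counter, gene models and strand setting were not given in the sources used here.

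Positions and gene types came from GENCODE release 29 (GRCh38) and promoters from RefSeq (GRCh38.p14). Steps between low FPKM values gave the worth of 1 read, and 99.51% of genes and 99.91% of tested ones then had whole read numbers in all libraries (tolerance 0.001). limma 3.58.1 in R 4.3.3 was fitted to log2(FPKM + 1) of the 11481 genes that averaged 1 FPKM or more. It took the 3 groups together, let the prior variance follow the mean, and had 3 residual degrees of freedom. Calls needed an adjusted p under 0.05 (Benjamini-Hochberg, two-sided), and each adjusted p printed is from this model. The pseudocount of 1 makes the differences of low genes smaller. Scripts were tested on simulated data.

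Members and lists were chosen with earlier results of these data known. The named genes are the members farthest above and below the members' median in each comparison with the vector, those clear of the vector against the shift, the largest called rises and falls of Q311E against wild type, those next to the position and FPKM bounds, those nearest the median, the 6 most abundant, and up to 3 of each role list by FPKM. Others named were chosen after their values were seen. The alternatives were other scalings, pseudocounts, filters, the 2 groups alone, a replicate block, limma-voom on recovered reads and leaving out each library. Some items are not reported here.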

Additional observations from a re-analysis of the deposited data

Results flagged for a closer look

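In 10 of the 256 members every wild-type library lay on one side of both vector libraries and every Q311E library on the other, a pattern met by 17.8% of all tested genes. Some of these values lay close to the vector, as for CDC14B and CORO2A in wild type (log2 differences of -0.07 and -0.06). In 9 of the 10 wild type was below the vector and Q311E above it. The differences below are Q311E minus wild type on the log2(FPKM + 1) scale. The pattern that picked the genes fixes their sign, so the difference was not tested here. It was 1.72 in TNFSF15 and 1.37 in PIP5KL1. NIPSNAP3A, of the NIPSNAP family, differed by 0.87, SNX30, a sorting nexin, by 0.71, NPDC1 by 0.71 and PGAP4, which modifies GPI anchors, by 0.59. CDC14B and CORO2A, a coronin, differed by 0.36 each, and GPSM1, a G-protein signalling modulator, by 0.29. RABEPK went the other way, above the vector in wild type and below it in Q311E, and differed by -0.87.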

How the results depend on the processing

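Members clear above the vector in both lines stayed within 1.5 times of 191 under every alternative that could move the count (135 to 212). For some of these the direction was fixed in advance. Leaving out a library, or adding the genes left out by name, can only keep or raise the count. The higher FPKM minimum can only keep or lower it. The members' median against the vector stayed above 0 throughout. In wild type it was 0.53 on the TPM scale and with the length trend removed, 0.61 with limma-voom, 0.53 at a mean FPKM of at least 5, 0.56 after median scaling, 0.55 and 0.53 with pseudocounts of 0.1 and 0.5, 0.56 after quantile normalization, and 0.47 to 0.50 with 1 library left out. In Q311E it was 0.55 with limma-voom, 0.44 after median scaling and 0.54 with a pseudocount of 0.1. The Q311E against wild type median was -0.0035 on the TPM scale, -0.0046 with the length trend removed, -0.0191 with limma-voom, -0.103 at FPKM of at least 5, -0.0790 after median scaling and -0.0544 after quantile normalization, which itself took all tested genes from 0.05 to -0.07. Less the median of all tested genes it was -0.03 to 0.01 under each scaling. Called members numbered 128 (wild type against vector), 140 (Q311E against vector) and 84 (Q311E against wild type). They became 37, 76 and 30 with no filter, 206, 20 and 23 with only the 2 groups compared, and 0 to 206, 0 to 201 and 0 to 159 with 1 library left out, and Q311E against vector became 92 at FPKM of at least 5, where fewer genes were tested. The start moved to 96.64 Mb with the length trend removed, limma-voom, no filter and both smaller pseudocounts, to 97.41 Mb at FPKM of at least 5, to 96.49 Mb in Q311E alone, and lay at 96.64 to 96.82 Mb with 1 library left out. The cause of these moves was not tested. The replicate block gave 126, 137 and 85 calls. The libraries share only a letter: deviations of same-lettered libraries correlated at 0.39 (vector and Q311E), -0.03 (vector and wild type) and -0.01 (wild type and Q311E). PTGS1 in Q311E against wild type turned from -0.10 to 0.24 without Q311E A, and was -0.45 without Q311E B. With 2 libraries a group, small differences were beyond reach.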
